A study of Rattus norvegicus with 9 samples.

Results

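The annexin genes were examined in the liver RNA of 9 rats with and without CCl4-induced liver fibrosis. Annexins are proteins that bind acidic phospholipids of cell membranes when calcium is present. They share a conserved core of repeated domains and differ in the N-terminal tail, which carries the binding sites for partner proteins. They take part in membrane repair, vesicle traffic, the control of inflammation and the generation of plasmin at the cell surface, and in the liver they are made by epithelial, mesenchymal and immune cells in different proportions. The members were the 10 symbols Anxa1, Anxa2, Anxa3, Anxa4, Anxa5, Anxa6, Anxa7, Anxa8, Anxa11 and Anxa13, taken by name from a total of 17156 genes. All 10 were listed in both deposited tables, and all 10 passed the filter on low counts in each comparison. Anxa9 had between 1 and 8 reads in each liver and was not tested, and Anxa10 had 3 reads in 1 normal rat of the normal and model table.

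Polyadenylated RNA of whole livers from male Sprague-Dawley rats was sequenced, from a normal control, a model and a TA group of 3 rats each. The normal rats received saline. The model rats received CCl4, a hepatotoxin that injures hepatocytes and leads to fibrosis, by stomach tube at 2 ml/kg as a 50% oil solution, with 2 doses per week for 9 weeks. The TA rats received the same CCl4 and then tormentic acid (TA), a plant triterpene, for 6 weeks at 3.0 mg/kg. According to the study, the livers of all animals were taken when the treatment ended. Its methods do not give the time between the last CCl4 dose and sampling in the model rats. The labels name the model and TA livers alike as hepatitis stage tissue and do not give the dose in each TA rat, which comes from the description of the study. The age of the rats is not given in the sources used here. The question was whether the annexin transcripts differed between fibrotic and normal livers, and between livers of fibrotic rats with and without TA.

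The deposited counts held from 13156735 to 18090405 reads a liver. The first model rat had 27.9% of its reads on its 50 most abundant genes, against 40.4% to 45.7% elsewhere, so that the first model rat stood apart. The fold changes of the members and partners that rose are therefore also given without it. The hepatocyte markers, which define the labelled tissue, were abundant in all livers, with a summed level between 92590 and 156100 CPM in the normal and TA livers, between 27400 and 99790 in the model livers, and lowest in the first model rat. CPM is the read count of a gene scaled to a common library size, here with TMM factors over the 9 livers, and it allows 1 gene to be compared between livers. In whole tissue, fewer cells of a type and less RNA per cell cannot be told apart.

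The sequences before the start sites are shown first for 4 members, with Anxa1, Anxa2 and Anxa5 chosen for their log2 fold changes near 3 between model and normal livers and Anxa11 as a member that differed little. The windows are the 250 bases before the annotated start, from RefSeq on the rat assembly GRCr8, and 8 of the 10 members had an entry. Letters in capitals mark matches to 5 motifs searched on both strands. These were TATAAA, the core element bound by the TATA-binding protein, CCAAT, the element bound by NF-Y, GGGCGG, the GC box bound by Sp1, TGANTCA, the site bound by AP-1, and GGAATG, the site bound by TEAD factors. The Anxa1 window lies at chr1:227303733-227303982 on the minus strand, that of Anxa2 at chr8:78986002-78986251 on the plus strand, that of Anxa5 at chr2:121272697-121272946 on the minus strand and that of Anxa11 at chr16:1419484-1419733 on the plus strand.
Anxa1: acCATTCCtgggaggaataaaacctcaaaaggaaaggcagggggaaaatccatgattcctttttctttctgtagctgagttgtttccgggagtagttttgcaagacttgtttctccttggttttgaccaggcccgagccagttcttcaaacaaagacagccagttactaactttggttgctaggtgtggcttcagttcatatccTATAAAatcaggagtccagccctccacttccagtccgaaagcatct
Anxa2: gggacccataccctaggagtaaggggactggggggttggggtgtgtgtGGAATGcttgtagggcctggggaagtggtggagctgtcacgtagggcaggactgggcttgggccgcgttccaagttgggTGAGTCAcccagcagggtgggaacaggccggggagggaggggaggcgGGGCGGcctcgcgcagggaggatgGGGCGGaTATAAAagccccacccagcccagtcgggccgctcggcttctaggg
Anxa5: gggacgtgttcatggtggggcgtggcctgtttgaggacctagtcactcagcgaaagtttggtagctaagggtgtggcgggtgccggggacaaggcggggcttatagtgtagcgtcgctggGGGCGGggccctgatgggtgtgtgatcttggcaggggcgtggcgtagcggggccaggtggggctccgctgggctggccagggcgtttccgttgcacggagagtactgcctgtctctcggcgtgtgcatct
Anxa11: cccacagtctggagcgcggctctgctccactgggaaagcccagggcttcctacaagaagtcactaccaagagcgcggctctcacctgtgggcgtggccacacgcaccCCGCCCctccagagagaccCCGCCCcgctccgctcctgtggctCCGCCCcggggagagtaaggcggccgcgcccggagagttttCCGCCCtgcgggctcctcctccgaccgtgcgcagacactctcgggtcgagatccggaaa

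The windows differed in base composition and in the motifs they held. The GC content was 45.2% for Anxa1, 67.2% for Anxa2, 65.2% for Anxa5 and 69.2% for Anxa11. TATAAA was found in 12.9% of 33469 rat promoter windows of the same length, and among the 8 member windows only in Anxa1 and Anxa2, where it began 46 and 45 bases before the start. GGGCGG was present in 30.5% of all windows and in those of Anxa2, Anxa3, Anxa4, Anxa5 and Anxa11. The Anxa2 window held 2 copies of GGGCGG, which began 76 and 52 bases before the start. It also held TGANTCA as TGAGTCA at 123 bases before the start, a motif found in 6.34% of all windows and in no other member window. GGAATG was present in 12.1% of all windows and in those of Anxa1, Anxa2 and Anxa8, and CCAAT in 34.0% and in those of Anxa4 and Anxa7. These matches are descriptions of the letters and not of bound sites.

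In Model VS Normal, 6 of the 10 annexins rose in the fibrotic livers and none fell. Anxa1, Anxa2, Anxa4, Anxa5, Anxa7 and Anxa13 passed an adjusted p under 0.05 (edgeR quasi-likelihood test, Benjamini-Hochberg), and the same 6 passed the combined threshold of the study's methods, a p under 0.05 before adjustment and an absolute log2 fold change above 1 (called the p and fold threshold from here on). Among the 12730 genes tested, 6.86% were higher at the first threshold and 16.6% at the second. The median log2 fold change of the members was 1.72, against 0.017 over all genes tested. The model and normal livers did not overlap for 7 of the 10 members, all of them higher in the model livers, and 20.9% of all genes were higher without overlap. Scaling by library totals in place of TMM moved the median of all genes to 0.65. The 6 members stayed called there, and Anxa3 was called as well. The genes called higher also went from 873 to 1918 by adjusted p, and from 2112 to 3738 by the p and fold threshold. The p-values rest on the spread between 3 rats per group, from which the error due to depth was not separated.

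Anxa2 encodes a protein that pairs with S100a10 at the cell surface, where the complex binds tissue plasminogen activator and plasminogen. The Anxa2 level was 22.7, 12.5 and 12.3 CPM in normal rats, 334, 109 and 45.8 CPM in model rats, and 31.2, 15.7 and 26.3 CPM in TA rats. Every model liver lay above every normal and TA liver, while normal and TA livers overlapped, and the first model rat was far above the other model rats. The mean was 15.8 ± 5.95 CPM in the normal and 163 ± 151 CPM in the model group (SD, n = 3). Its log2 fold change came to 3.37 ± 0.72 (SE) with an adjusted p of 0.0342 (edgeR), and without the first model rat it was 2.28 with an adjusted p of 0.0204. Its increase was above those of Anxa5 and Anxa13 with all rats, and below both without that rat and with limma voom, where it was 2.50 against 2.97 and 2.76.

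Anxa1 encodes a glucocorticoid-induced protein that limits leukocyte recruitment through formyl peptide receptors. Its level was 12.0, 3.99 and 7.72 CPM in normal rats, 102, 34.4 and 43.9 CPM in model rats, and 21.3, 10.7 and 11.8 CPM in TA rats. The model livers were again above all others, and the TA livers overlapped the normal ones. The log2 fold change in Model VS Normal was 2.94 ± 0.54 (adjusted p = 0.0245, edgeR), and 2.30 without the first model rat (adjusted p = 0.0169, edgeR). The formyl peptide receptor genes Fpr1 and Fpr2 had too few reads to be tested.

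Anxa5 encodes the annexin that is used as a probe for phosphatidylserine on dying cells. Its level was 20.6, 17.3 and 17.9 CPM in normal rats, 219, 171 and 81.9 CPM in model rats, and 53.1, 32.7 and 39.0 CPM in TA rats. The 3 groups did not overlap, with the TA livers between the normal and the model livers. The log2 fold change in Model VS Normal was 3.09 ± 0.40 with an adjusted p of 0.0106 (edgeR), the smallest of the family, and without the first model rat it was 2.75.

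Anxa13 is expressed mainly in epithelia and is regarded as the founder of the vertebrate family. It was 2.41, 2.51 and 1.93 CPM in normal rats, 19.5, 18.7 and 9.27 CPM in model rats, and 4.41, 2.28 and 8.13 CPM in TA rats. Model and normal livers were clearly apart, and the third TA rat came close to the third model rat. The log2 fold change in Model VS Normal was 2.79 ± 0.38 (adjusted p = 0.0119, edgeR), and the value without the first model rat was 2.59.

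Anxa4 and Anxa7 rose less. Anxa4, an annexin of secretory epithelia, was 28.5, 23.8 and 25.1 CPM in normal rats, 113, 70.0 and 53.5 CPM in model rats, and 45.9, 46.6 and 28.1 CPM in TA rats. Its log2 fold change in Model VS Normal was 1.62 ± 0.31 (adjusted p = 0.0279, edgeR). Anxa7, also called synexin, promotes the aggregation of secretory granules. It was 10.96, 12.2 and 20.3 CPM in normal rats, 75.8, 42.7 and 34.7 CPM in model rats, and 37.3, 27.4 and 21.4 CPM in TA rats, with a log2 fold change of 1.82 ± 0.38 in Model VS Normal (adjusted p = 0.0324, edgeR). With the first model rat left out, the values were 1.24 for Anxa4 and 1.41 for Anxa7, and both stayed called. The model livers lay above the normal livers for both genes, and for Anxa7 the TA livers overlapped the model livers.

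The other 4 members did not pass either threshold. Anxa3, which is abundant in neutrophils, was 25.3, 16.4 and 21.2 CPM in normal rats, 38.6, 33.4 and 28.9 CPM in model rats, and 48.1, 24.2 and 24.8 CPM in TA rats. The model and normal livers did not overlap, but the log2 fold change of 0.69 ± 0.24 had an adjusted p of 0.114 (edgeR), and it was 1.35 with an adjusted p of 0.0393 when the libraries were scaled by their totals. Anxa6, a large annexin with a duplicated core that acts in endosomal cholesterol transport, was 175, 187 and 170 CPM in the normal, 227, 187 and 158 CPM in the model, and 176, 178 and 148 CPM in TA rats. Its groups overlapped, with a log2 fold change of 0.11 ± 0.28 in Model VS Normal and -0.055 without the first model rat. Anxa11, which binds the calcium sensor Pdcd6, was 69.8, 76.1 and 65.3 CPM in the normal, 102, 79.0 and 65.2 CPM in the model, and 73.7, 66.2 and 64.8 CPM in TA rats, with a log2 fold change of 0.22 ± 0.25. Anxa8, an annexin of stratified epithelia, had 4, 0 and 51 reads in the normal, 70, 20 and 1 in the model, and 32, 10 and 1 in TA rats. Each group held livers with many and with few reads, and the log2 fold change of 0.027 ± 1.43 became 3.23 without the third normal rat and -1.09 with the first model rat left out.

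**Figure D1:**
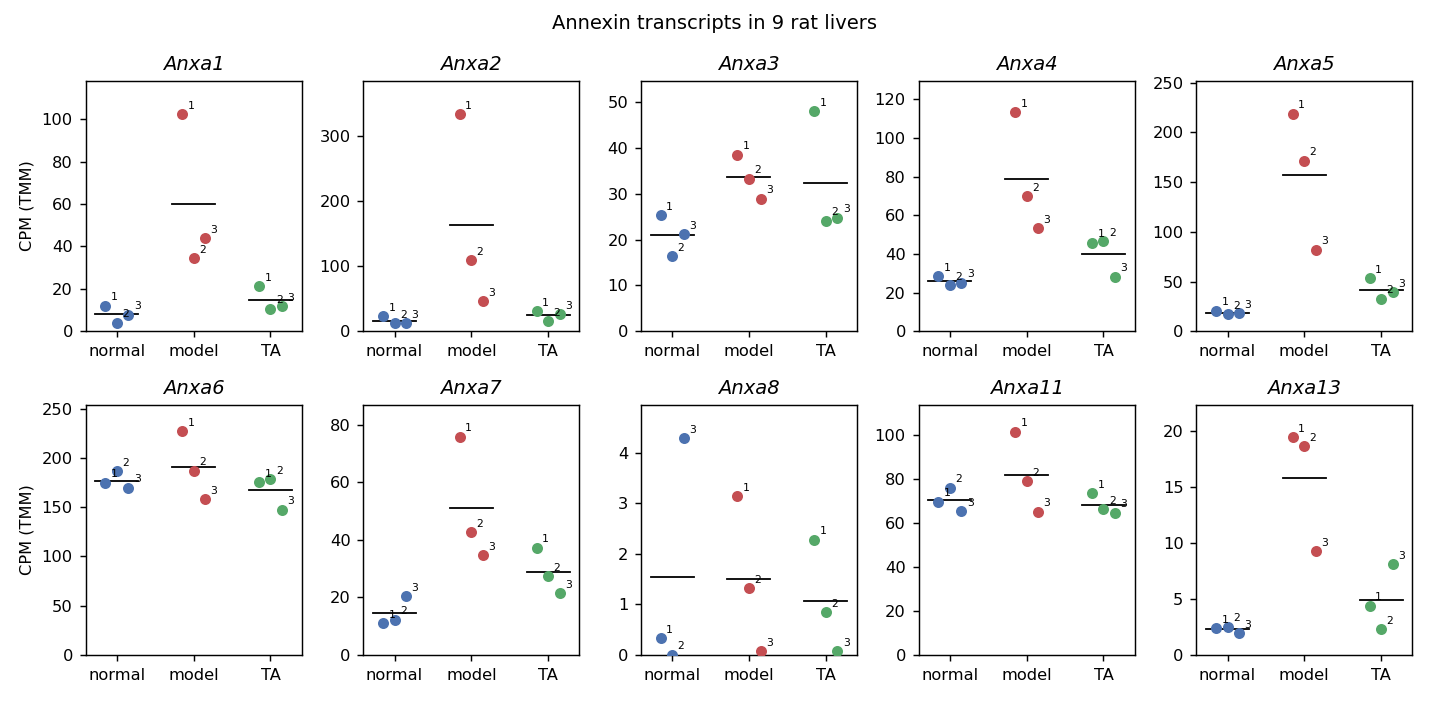
Level of each annexin transcript in CPM (linear axis from 0, TMM scaling over 9 livers) in the normal, model and TA livers. Each point is 1 rat with its replicate number and each bar is the group mean. For Anxa5 the 3 groups are apart, whereas for Anxa6 and Anxa11 they overlap.

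The adjusted calls of Model VS Normal were not kept with fewer normal rats. With any 1 of the 3 normal rats left out, 0 members had an adjusted p under 0.05, and the adjusted p-values of the 6 members ran from 0.0539 to 0.165 (edgeR). The calls over all genes also went from 1002 to between 0 and 51. In these fits the same 6 members passed the p and fold threshold. Without the second model rat, Anxa7 was no longer called and the number of calls was 5.

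In TA VS Model, 4 annexins fell by the p and fold threshold, and none rose. These were Anxa1, Anxa2, Anxa5 and Anxa13, and 10.2% of the 12781 genes tested were lower at this threshold. No member had an adjusted p under 0.05 (edgeR), and no gene tested was lower at that threshold (0%) or higher. An unadjusted p under 0.05 was reached by 5 members, the 4 named and Anxa4, and by 1999 genes in all. With an adjusted p under 0.05, DESeq2 called 3 members (Anxa1, Anxa2 and Anxa5) and 520 genes, and limma voom with sample weights called 1 member (Anxa5) and 169 genes. The TA and model livers did not overlap for 5 members, all lower in the TA livers, and 12.6% of all genes were lower without overlap. The median log2 fold change of the members was -0.90, and that of all genes was -0.0038.

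Anxa2 had a log2 fold change of -2.74 ± 0.70 in TA VS Model (adjusted p = 0.246, edgeR). Without the first model rat it was -1.65. The log2 fold change of Anxa1 was -2.04 ± 0.48 (adjusted p = 0.246, edgeR), and -1.41 without that rat. Anxa5 had -1.92 ± 0.41 (adjusted p = 0.230, edgeR) and Anxa13 had -1.67 ± 0.50 (adjusted p = 0.258, edgeR), and without the same rat these were -1.59 and -1.48. With limma voom Anxa13 was lower than Anxa2, at -2.11 and -1.99. These 4 members passed the p and fold threshold with each rat left out in turn. Anxa4 had a log2 fold change of -0.97 ± 0.36 and Anxa7 of -0.83 ± 0.36, or -0.61 and -0.42 with the first model rat left out, and with some rats left out either also passed, giving between 4 and 6 members. With library totals in place of TMM, both had log2 fold changes beyond -1, of -1.54 and -1.40, and passed. The genes that passed in either direction also went from 1571 to 2447 with library totals. Of the others, Anxa3 had -0.053 ± 0.32, Anxa6 -0.19 ± 0.30, Anxa11 -0.26 ± 0.26 and Anxa8 -0.52 ± 1.19.

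In TA VS Normal, Anxa5 was higher in the TA livers by the p and fold threshold. Its log2 fold change was 1.13 ± 0.23 (adjusted p = 0.112, edgeR), and 4.24% of the 12179 genes tested were higher at this threshold. No member had an adjusted p under 0.05 (edgeR), against 0.23% of all genes that were higher, while 3 members (Anxa4, Anxa5 and Anxa7) and 1148 genes had an unadjusted p under 0.05. With the replicate number as a block the log2 fold change of Anxa5 was 1.11 with an adjusted p of 0.0199 (edgeR), and the adjusted calls over all genes went from 32 to 203. With DESeq2 the adjusted p of Anxa5 was 0.00363. Without the first TA rat the log2 fold change was 0.92 and no member passed the p and fold threshold, while with any other rat left out 1 or 2 members passed, with Anxa5 among them.

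With all rats in the fit, the remaining members were less far from the normal level than Anxa5. With some rats left out, Anxa1, Anxa7, Anxa8 or Anxa13 was further from it than Anxa5. Against the normal livers, Anxa13 had a log2 fold change of 1.08 ± 0.47 and Anxa7 of 0.96 ± 0.31. Anxa1 had 0.86 ± 0.43, Anxa4 had 0.61 ± 0.24, Anxa2 had 0.60 ± 0.34 and Anxa3 had 0.60 ± 0.32. Anxa6 was at -0.11 ± 0.18, Anxa11 at -0.08 ± 0.18 and Anxa8 at -0.51 ± 1.38. With library totals Anxa6 was at 0.074 and Anxa11 at 0.11. Normal and TA livers did not overlap for Anxa5 and Anxa7, which is 2 of 10 members, and 8.26% of all genes were higher in the TA livers without overlap. The median of the members was 0.61, and that of all genes was -0.0096. Model VS Normal and TA VS Model share the model rats, so that a high value in a model rat enters both with opposite sign.

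**Figure D2:**
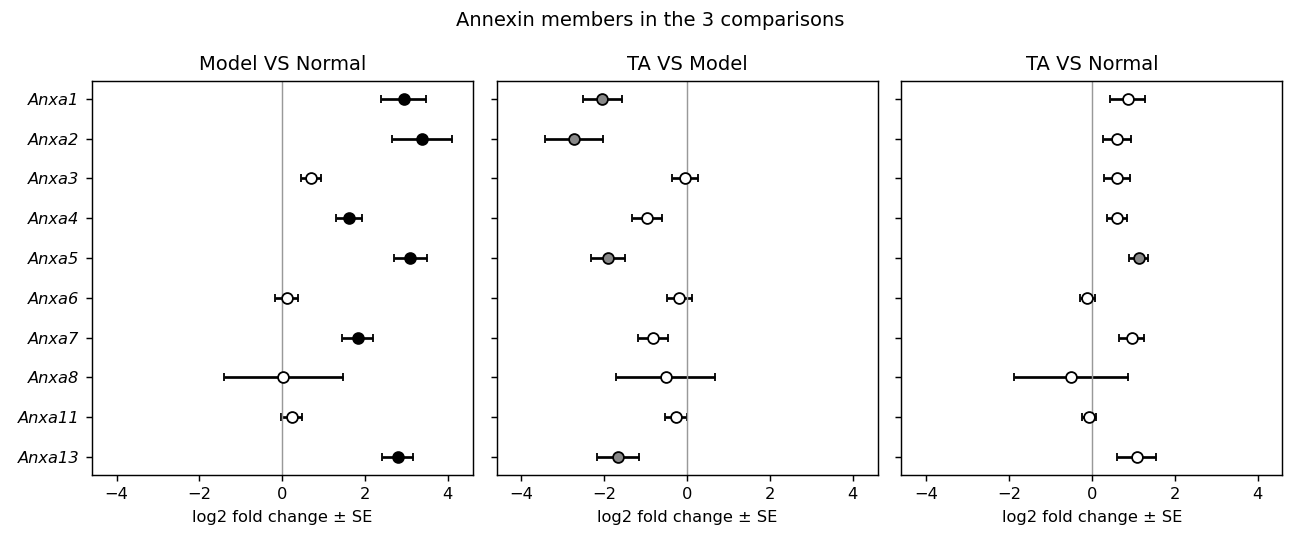
Log2 fold change with its standard error for the 10 annexins in Model VS Normal, TA VS Model and TA VS Normal (edgeR, 3 rats per group). Black points have an adjusted p under 0.05, grey points pass only the p and fold threshold, and white points neither. The 6 black points are all in Model VS Normal, and Anxa3, Anxa6, Anxa8 and Anxa11 are white in all 3 comparisons.

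**Figure D3:**
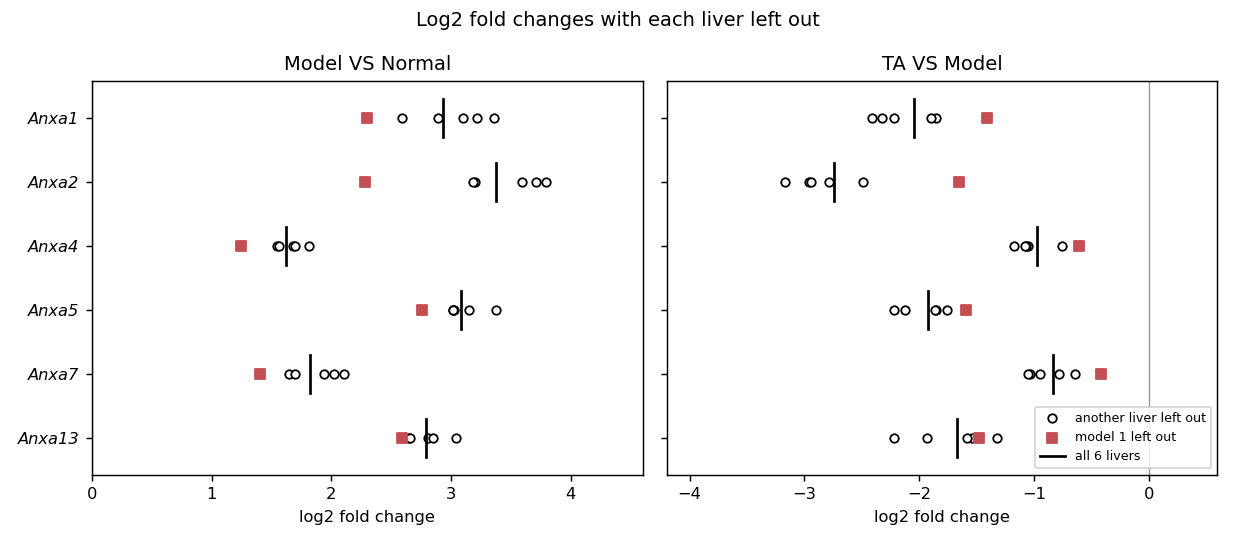
Log2 fold change of the 6 members that rose in Model VS Normal, with each of the 6 livers of a comparison left out in turn. The black line is the value with all 6 livers and the red square the value without the first model rat. In Model VS Normal the square of each gene is the value nearest to 0, with 2.28 against 3.37 for Anxa2, and all values in both panels keep their sign.

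The order of the members within a liver was compared per transcript length, as FPKM, a read count scaled by the length of the gene's exons and by the size of the library. Both tables give the same FPKM for the model rats. In the normal livers Anxa6 was highest at 56.7 ± 4.15 FPKM (SD, n = 3), followed by Anxa11 at 24.7 ± 2.52 FPKM, and neither overlapped the next member. Anxa4 at 10.7, Anxa5 at 10.1, Anxa2 at 9.66, Anxa7 at 6.52, Anxa1 at 4.69 and Anxa3 at 4.49 FPKM followed, with overlap between neighbours among these 6 members. Anxa3 did not overlap the next member. Anxa13 at 1.20 and Anxa8 at 0.652 FPKM were lowest and overlapped each other.

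In the model livers Anxa2 at 179 ± 202 FPKM and Anxa5 at 141 ± 92.6 FPKM came before Anxa6 at 97.3 ± 43.4 FPKM. The place of Anxa2 rested on the first model rat, while Anxa5 stayed before Anxa6 without it. Without that rat the mean was 63.3 FPKM for Anxa2, 92.1 FPKM for Anxa5 and 72.9 FPKM for Anxa6, a setting chosen after the data were seen. All neighbours in the order with all model rats overlapped between rats except Anxa3 at 11.4 and Anxa8 at 1.19 FPKM. FPKM is scaled to the whole library, in which the first model rat stood apart. In the TA livers Anxa6 at 59.7 ± 7.60 FPKM was again highest without overlap, and Anxa11 at 26.8, Anxa5 at 25.5, Anxa4 at 18.7, Anxa2 at 16.8, Anxa7 at 14.6, Anxa1 at 9.78 and Anxa3 at 7.86 FPKM followed with overlap between neighbours.

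The make-up of the family within each liver also differed between the groups, a measure that does not depend on how libraries are scaled against each other. Anxa6 held 41.1%, 47.4% and 43.1% of the summed annexin FPKM in normal rats, 12.3%, 17.9% and 22.9% in model rats, and 29.2%, 37.4% and 32.5% in TA rats. The 3 groups did not overlap in this share, with the TA rats between the others. Anxa5 held 8.23%, 7.45% and 7.72% for the normal rats, 20.1%, 27.96% and 20.2% for the model rats and 15.04%, 11.7% and 14.6% for the TA rats, again without overlap. The share of Anxa2 was 10.2%, 6.05% and 5.93% for the normal rats, 34.4%, 19.9% and 12.6% for the model rats and 9.90%, 6.30% and 11.04% for the TA rats, so that normal and TA livers overlapped. Anxa11 went from a normal mean of 19.1% to 8.22% with CCl4 alone and 14.8% with TA. The shares of a liver have a fixed total, so that a share can fall without a fall in level. The mean level in the normal and model livers was 177 and 191 CPM for Anxa6, and 70.4 and 82.0 CPM for Anxa11, with overlap between the groups. The summed annexin level was between 346 and 368 CPM in the normal, between 522 and 1234 CPM in the model, and between 372 and 493 CPM in the TA livers. The shares are descriptive and were not tested.

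**Figure D4:**
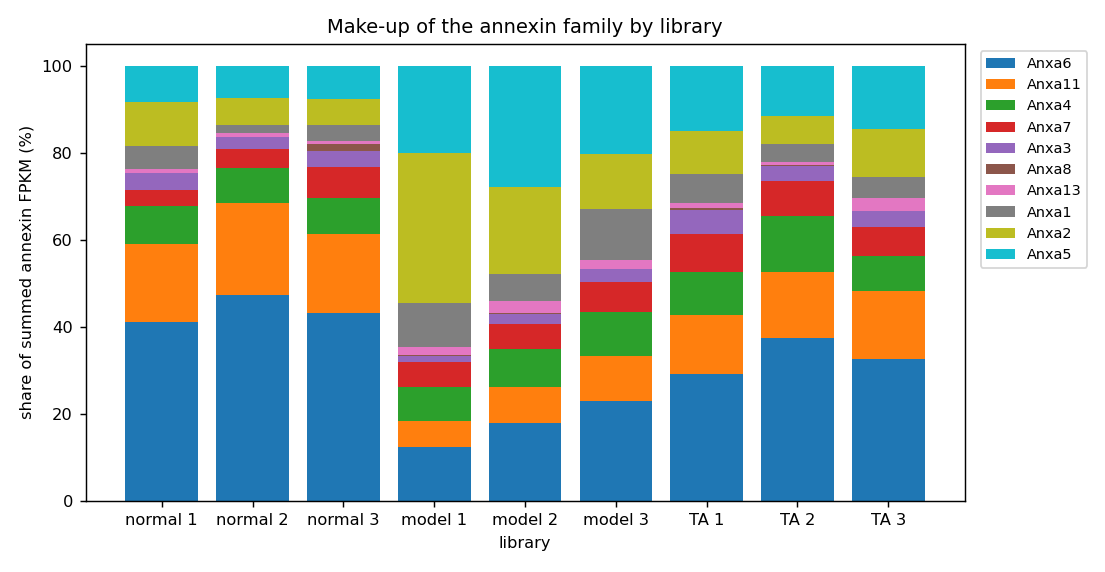
Share of each annexin in the summed annexin FPKM of each liver, in percent, with 1 bar per rat. Anxa6 takes a mean of 43.9% in the normal, 17.7% in the model and 33.1% in the TA group, while Anxa5 takes 7.80%, 22.7% and 13.8%. The level of Anxa6 in CPM overlapped between the groups.

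Partner genes of the annexins were described from a list of 15 genes, of which 13 were tested. In Model VS Normal 9 of them rose by the p and fold threshold and 7 by the adjusted p, and none fell, with a median log2 fold change of 2.45. Among all genes tested, 16.6% were higher at the first of these thresholds and 6.86% at the second. Plat, the tissue plasminogen activator, was 4.24, 3.80 and 3.11 CPM in normal rats, 156, 47.8 and 24.3 CPM in model rats, and 10.4, 7.95 and 11.5 CPM in TA rats. Model VS Normal gave a log2 fold change of 4.36 ± 0.69 (adjusted p = 0.0159, edgeR). The calcium-binding genes S100a11, a partner of Anxa1, and S100a6 had log2 fold changes of 3.64 and 3.35 with adjusted p-values of 0.0194 and 0.0191, and Plaur, the urokinase receptor, had 3.16 with an adjusted p of 0.0469 (edgeR). All 4 were highest in the first model rat. Leaving that rat out gave 3.26 for Plat, 2.80 for S100a11, 2.46 for S100a6 and 1.81 for Plaur, with an adjusted p of 0.0507 for Plaur (edgeR) and the others still called.

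In TA VS Model 7 partners fell by the p and fold threshold and 1 rose. Of all 12781 genes tested, 1301 (10.2%) fell and 270 rose at this threshold. Plat had a log2 fold change of -2.94, S100a11 of -2.63, S100a6 of -1.85 and Plaur of -1.94. With the first model rat left out, Plat had -1.84 and S100a11 -1.78, while S100a6 at -0.97 and Plaur at -0.59 did not pass. In TA VS Normal 4 partners were higher at this threshold, against 4.24% of all genes tested, and the median of the partners was 0.76. No partner had an adjusted p under 0.05 in TA VS Model or TA VS Normal (edgeR).

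S100a10, the direct partner of Anxa2, had a similar pattern. S100a10 was 23.2, 10.8 and 13.2 CPM in normal rats, 205, 85.1 and 33.4 CPM in model rats, and 33.0, 18.2 and 30.1 CPM in TA rats. It had a log2 fold change of 2.78 ± 0.65 between model and normal livers (adjusted p = 0.0420, edgeR) and of -1.99 ± 0.62 in TA VS Model (adjusted p = 0.260, edgeR). These were 1.90 and -1.11 with the first model rat left out. The ratio between the partners was not constant. The log2 FPKM of S100a10 minus that of Anxa2 was 1.30, 1.06 and 1.37 for the normal rats, 0.56, 0.91 and 0.81 for the model rats and 1.35, 1.47 and 1.46 for the TA rats. All model livers lay below all other livers in this difference, so that Anxa2 was closer to S100a10 in the model group. The model minus normal difference of the means was -0.48 (exact permutation test, two-sided, p = 0.1), and the TA minus model difference was 0.67 (exact permutation test, two-sided, p = 0.1). Between the TA and normal groups it differed by 0.18 (exact permutation test, two-sided, p = 0.2). With 3 rats against 3 the smallest p that this test allows is 0.1.

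**Figure D5:**
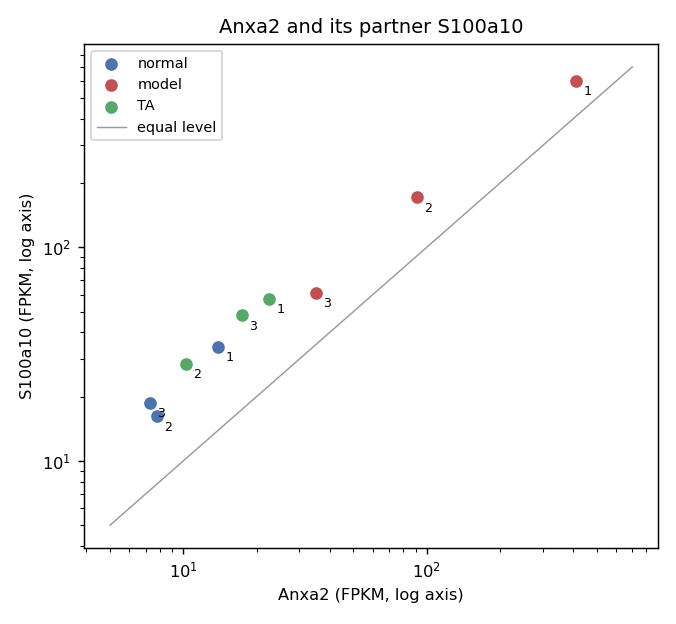
FPKM of S100a10 against FPKM of Anxa2 in each of the 9 livers, both on log axes, with the replicate number of each rat and a grey line where both genes have the same level. All livers lie above the line, and the 3 model livers lie nearer to it, with a mean log2 difference of 0.76 against 1.24 in the normal and 1.43 in the TA group.

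Genes that expose or recognise phosphatidylserine, the lipid that Anxa5 binds, were described from a second list. Of 12 genes listed, 11 were in both tables and 9 were tested in Model VS Normal. At the p and fold threshold, where 16.6% of all genes rose, 2 of the 9 rose and none fell. These were Mfge8, a bridging protein between dying cells and phagocytes, with a log2 fold change of 1.31 (adjusted p = 0.0443, edgeR), and Gas6, the ligand of the Axl and Mertk receptors, with 1.08 (adjusted p = 0.140, edgeR). Leaving out the first model rat gave 1.04 for Mfge8, with an adjusted p of 0.0527 (edgeR), while Gas6 still passed the p and fold threshold. In TA VS Model Gas6 fell by 1.23 and Pros1, another ligand of these receptors, rose by 1.09, both without an adjusted p under 0.05, and Pros1 is named after its value was seen. No gene of the list passed in TA VS Normal. The median log2 fold change of the list was 0.73, -0.26 and 0.35 in the 3 comparisons. The number of partner and phosphatidylserine genes called together was 10 in TA VS Model, with 5 when the first model rat was left out and 6 when the second TA rat was. In TA VS Normal it was 4, 7 without the first normal rat and 2 without the second normal rat.

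Markers of several liver cell types moved with the annexins. The summed level of 7 cholangiocyte markers was between 16.5 and 25.0 CPM in the normal, between 99.3 and 171 CPM in the model and between 31.6 and 39.4 CPM in the TA livers, and 6 of 6 tested rose in Model VS Normal with an adjusted p under 0.05 (edgeR). The 8 stellate cell and myofibroblast markers summed to between 208 and 301 CPM in the normal, between 1203 and 12420 CPM in the model and between 690 and 1177 CPM in the TA livers. The highest value was in the first model rat, mostly from Col1a1 at 4442 and Col3a1 at 6901 CPM. By the same test 6 of 8 rose. Lrat overlapped, with 21.5, 16.6 and 10.6 CPM in normal and 22.5, 3.09 and 22.2 CPM in model rats. The 4 mesothelial markers were between 0.839 and 2.49 CPM in the normal, between 25.0 and 82.9 CPM in the model and between 4.65 and 12.3 CPM in the TA livers. Of the 82.9 CPM, in the second model rat, 78.9 CPM was Msln. The 5 neutrophil markers were between 10.2 and 23.4, between 34.7 and 87.6 and between 17.6 and 31.1 CPM in the same order. Among them Csf3r overlapped, with 6.48, 2.32 and 1.43 CPM in normal and 34.0, 2.76 and 5.94 CPM in model rats.

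The summed levels of other marker lists overlapped between the groups. The 8 macrophage markers lay between 351 and 461 CPM in the normal, between 236 and 782 CPM in the model and between 346 and 711 CPM in the TA livers. The endothelial markers lay between 148 and 173 CPM, between 132 and 347 CPM and between 146 and 226 CPM, and the 6 lymphocyte markers between 5.79 and 11.6 CPM, between 9.96 and 18.4 CPM and between 9.47 and 11.2 CPM in the same order. Within these sums, single markers differed in both directions. Cd68, Adgre1, Trem2 and Vwf were higher and Clec4f, Marco and Kdr lower in the model than in the normal livers without overlap. Vsig4, Cd163, C1qa, Cdh5, Lyve1 and Tek overlapped. Trem2 was 0, 0.19 and 0.59 CPM in normal and 107, 7.90 and 7.43 CPM in model rats. Clec4f was 179, 163 and 145 CPM in normal and 12.9, 45.2 and 115 CPM in model rats. Pancreas markers summed to at most 1.42 CPM, skeletal muscle markers to at most 3.82 CPM and adipocyte markers to at most 75.4 CPM in any liver. Each of these lists held 4 markers, of which 2 were in both tables. The adipocyte value of 75.4 CPM was Cfd alone in the third TA rat, where Adipoq had no reads. No marker found in both tables was at 0 in all 9 livers. The part of these cell types in the annexin differences was not tested.

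The genes with the most similar pattern were sought among 10931 genes for each member, by the root mean square difference in log2 CPM over the 9 livers after each profile was centred on its own mean. The nearest to Anxa2 were Vim, the intermediate filament of mesenchymal cells, at 0.27, and S100a10 at 0.30. The nearest to Anxa1 were Dkk2 at 0.24 and Serpinb1a at 0.33, those to Anxa5 were Tes at 0.28 and St14 at 0.29, and those to Anxa13 were Lad1 at 0.30 and Ldhb at 0.31. Anxa4 was nearest to Frmd6 at 0.16 and Hltf at 0.19, and Anxa7 to Nlrp1a at 0.20 and Sp100 at 0.20. Anxa3 was nearest to RT1-M2 at 0.18 and Idh3a at 0.22.

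The members that varied little had the smallest distances. Anxa6 was nearest to Raly at 0.076 and Camlg at 0.078, and Anxa11 to Bub3 at 0.098 and Ncaph2 at 0.10. Anxa8 had no close neighbour, with Prim2 at 1.09 and Rbp7 at 1.19. Among the members themselves, Anxa6 and Anxa11 were most alike at 0.081, followed by Anxa4 and Anxa7 at 0.32, and Anxa5 lay at 0.43 from Anxa13 and at 0.49 from Anxa2. These distances are descriptions over livers that share their group differences.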

How the data were processed

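Livers of 9 rats were sequenced as polyadenylated RNA, 3 per group, and groups and replicate numbers were taken from the library labels. According to the methods of the study, the authors trimmed the reads with Trimmomatic and Cutadapt, mapped them with STAR and counted them per gene with HTSeq-count. Their methods name a human and their processing notes a mouse genome build, while the gene symbols are written as rat symbols, so that the mapping reference is uncertain and how reads were split between similar genes could not be checked. Deposited by the authors were raw counts of reads on each gene, FPKM values per gene, and a signal per gene and library that equals the counts divided by a DESeq2 size factor, which was not used for the results here. Their log2 fold changes and p-values per gene were not used.

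Raw counts were tested with edgeR 4.0.16 in R 4.3.3 (quasi-likelihood test, TMM normalization, the edgeR filter on low counts, with just the 6 libraries compared). The p-values were adjusted over all genes tested by the Benjamini-Hochberg method. Genes were called at an adjusted p under 0.05, and, after the study's methods, at a p under 0.05 before adjustment and an absolute log2 fold change above 1. The 16730 genes listed in both tables entered TA VS Normal. The SE is the ratio of the log2 fold change to the root of F. CPM profiles used a prior count of 2, and neighbours needed a mean log2 CPM of at least 1. Single values were compared by an exact permutation test. The fit was also run on simulated data. There both groups had the same relative spread between rats for each gene, and no library was made to stand apart. Alternatives were DESeq2 1.42.0, limma 3.58.1 (voom with sample quality weights), library totals, DESeq2 size factors, the newer form of the quasi-likelihood fit, no filter, all 9 libraries in 1 fit, a replicate block and leaving out each library.

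All 10 members were named. Of each related list, up to 4 genes that rose and 4 that fell most in Model VS Normal were named, with S100a10 always, and the 2 nearest genes of each member. The value of 1 gene of the partner list is not reported here. The members and the lists were chosen with earlier results of these data known. Libraries with the same replicate number come from different rats, but the TA and normal rats that share a number deviated together from their groups, at r = 0.275, 0.454 and 0.538, so that the blocked value is given beside Anxa5, where it changed a call. No pair of libraries held identical counts. Total counts ran from 13156735 to 18090405 per liver, and the error due to depth was not separated from that between rats. Promoter windows came from RefSeq on GRCr8.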

Additional observations from a re-analysis of the deposited data

How the results depend on the processing

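With 3 rats per group and no repeat library of a rat, the measured spread held the error due to depth together with the differences between rats. Anxa8 had too few reads to give a stable direction. Over 140 fitted values per comparison (10 members under 14 alternatives), 114 kept their direction and side of the adjusted threshold in Model VS Normal, 129 in TA VS Model and 132 in TA VS Normal. In the main fits of the last 2 comparisons no member was called by adjusted p. Staying uncalled counted as kept there, so that these numbers do not compare the stability of the comparisons. The number of members called in Model VS Normal ran from 0 to 6 by adjusted p and stayed at 6 by unadjusted p and fold with 1 rat left out. In TA VS Model it was 3 with DESeq2 and 1 with limma voom by adjusted p, and stayed at 0 with any rat left out. In TA VS Normal it was 1 with DESeq2 and 1 with the replicate block by adjusted p, and stayed at 0 with 1 rat left out. Over all genes, 332 were called with DESeq2 and 203 with the block, against 32 in the main fit. By unadjusted p and fold the number of members was 4 with library totals (Anxa1, Anxa5, Anxa7 and Anxa13) and 3 with limma voom. It was 2 with DESeq2, with the newer form of the fit, without a filter and with all 9 libraries in 1 fit. With 1 rat left out it ran from 0 to 2, with 0 without the first TA rat. Genes higher at this threshold numbered 516 in the main fit, 715 with library totals, 597 with limma voom and 657 with DESeq2. They numbered 534 with the newer form, 684 without a filter and 570 with all 9 libraries. With 1 rat left out they ran from 387 to 604. The direction turned for Anxa6 in Model VS Normal without the first model rat (-0.055, with a leave-one-out range from -0.055 to 0.21) and in TA VS Normal with library totals (0.074), as for Anxa11 there (0.11). It turned for Anxa3 in TA VS Model with limma voom (0.10) and in leave-one-out fits (from -0.45 to 0.13). For Anxa8 it turned in Model VS Normal with DESeq2 (-0.023), without a filter (-0.0024) and in leave-one-out fits (from -1.09 to 3.23), in TA VS Model with limma voom (0.50) and in leave-one-out fits (from -1.73 to 0.62), and in TA VS Normal with limma voom (2.38), with the replicate block (0.36) and in leave-one-out fits (from -1.75 to 2.72). The causes of these turns were not tested. Library totals moved the median log2 fold change of all genes to 0.65 in Model VS Normal, -0.48 in TA VS Model and 0.18 in TA VS Normal. The replicate block changed no other adjusted call of a member than that of Anxa5. Same-numbered rats correlated at r = 0.22, -0.057 and -0.054 in Model VS Normal, and for TA VS Model at 0.225, -0.03 and 0.01, where they share only a number. The block gave 6 members by adjusted p in Model VS Normal and none in TA VS Model. From counts in place of FPKM, the mean share of Anxa6 was 49.9% in the normal, 24.6% in the model and 39.8% in the TA group.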
